A study of Mus musculus with 5 samples.

Results

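The BH3-only genes of the mouse encode proteins that share with the wider Bcl-2 family a single short helix, the Bcl-2 homology 3 (BH3) segment. Bcl2l11 (Bim), Bbc3 (Puma), Bmf, Pmaip1 (Noxa), Bid, Bad, Bik and Hrk were taken as a gene family, by name. The choice was made with earlier results of these data known. Counts of members beside shares of all genes are therefore no independent measure of the response. Their probe sets, the groups of short oligonucleotides that are read together as 1 level on an Affymetrix array, were found through the current symbol or an older synonym in the deposited table. These 8 of 19764 named genes had 19 of 45101 probe sets. Bcl2l11 had 6, Bmf and Bik 3 each, Bid and Bad 2 each, and Bbc3, Pmaip1 and Hrk 1 each. The deposited table calls Bik Biklk and lists Hrk under the older name Bid3.

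The study measured total RNA of thymic cell suspensions on 5 arrays, each from 3 pooled male CD-1 mice aged 4 to 6 weeks, to set glucocorticoid-treated samples against their vehicle controls. CD-1 is an outbred stock, and dexamethasone is a synthetic glucocorticoid. One pool came from animals killed 4 h after 0.2 mg dexamethasone per mouse was given into the peritoneum, and its control from animals 4 h after phosphate-buffered saline (PBS) by the same route. A further pool spent 4 h in culture with dexamethasone (10e-7 M, as the labels write it), and its control 4 h with 0.1% ethanol. The last pool was untreated and serves as a further baseline. Every group had 1 array, so a difference between arrays has no replicate check, and the labels do not say whether the cultured pools shared animals. Whole suspensions were measured, so fewer cells of a type and less RNA per cell cannot be told apart.

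BH3-only proteins carry death signals to the mitochondria. They bind pro-survival relatives such as Bcl-2, Bcl-xL and Mcl-1 in a groove, and some of them also engage the effectors Bax and Bak, which then open the outer mitochondrial membrane and let cytochrome c activate caspases. Developing thymocytes that carry both CD4 and CD8 are known for their sensitivity to glucocorticoids, and mouse genetics has tied Bim and Puma to that death.

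Dexamethasone went with higher levels of Bcl2l11, Bbc3 and Bmf in living animals and in culture, by similar amounts. In living animals Pmaip1 was also higher with dexamethasone and Bid lower, each by at least 2-fold, with small differences of the opposite sign in culture, while Bad, Bik and Hrk differed by under 2-fold in both. All levels below are the authors' RMA values on a log2 scale, and all differences are differences of log2 levels, so a difference of 1 is 2-fold. The brightest probe set, by mean over the 5 arrays, stands for its gene, and 7 of the 8 genes passed the level limit of 5.28 on that mean, which kept 9882 genes. Hrk, at a mean of 3.54, did not pass. In the plot of levels on every array, the paired points of Bcl2l11, Bbc3 and the brightest Bmf probe set slope the same way in both settings.

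**Figure D1:**
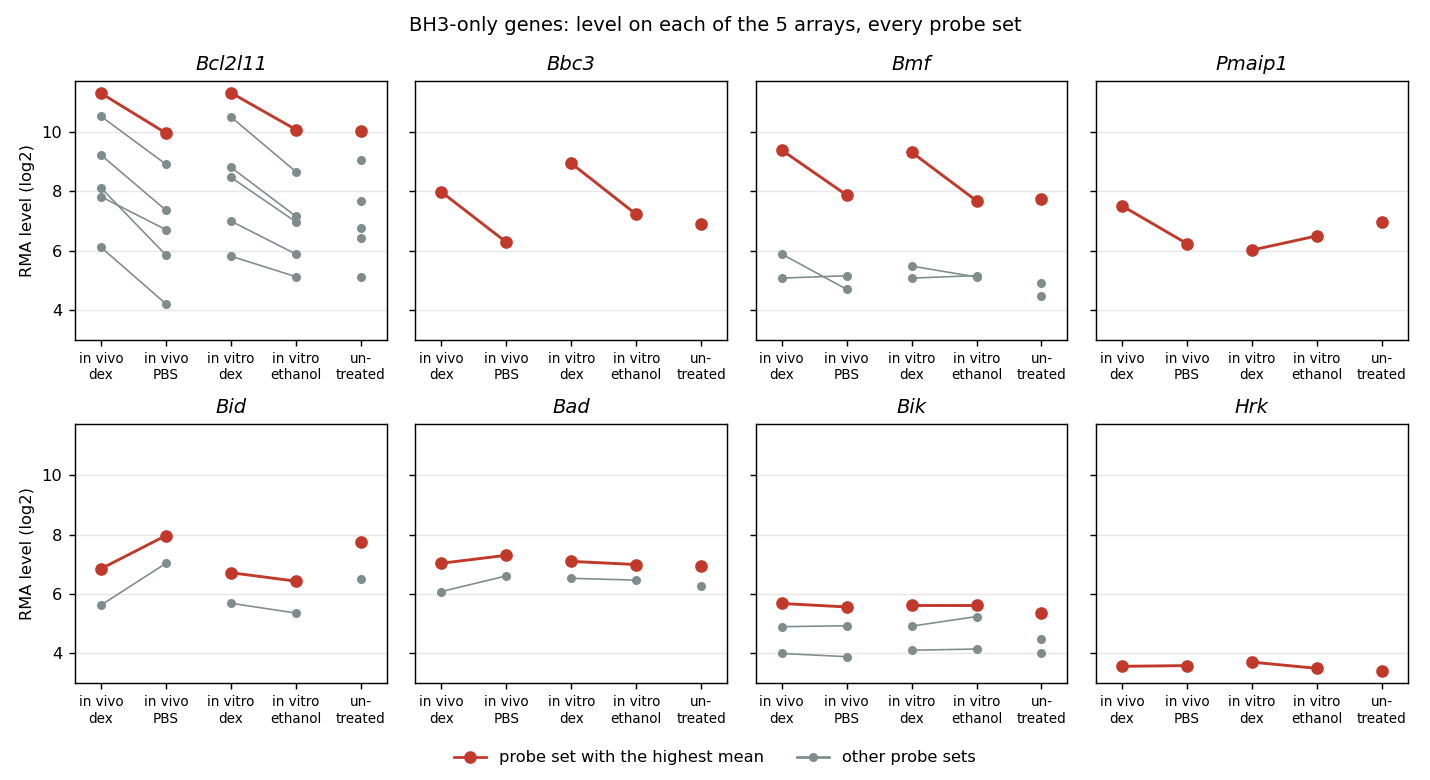
RMA level (log2, vertical axis) of all 19 probe sets of the 8 BH3-only genes on each of the 5 arrays (horizontal axis). Lines join each dexamethasone array to its vehicle array, and red marks the probe set that stands for the gene. Bcl2l11 lies at 11.31 and 11.33 on the in vivo and in vitro dexamethasone arrays, against 9.97 with PBS, 10.09 with ethanol and 10.03 untreated.

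In vivo 4 of the 7 kept members were at least 2-fold higher, and 1 was lower by that much. In that comparison 2.71% of the 9882 kept genes were past 2-fold upward and 1.48% downward. In vitro 3 of the 7 were at least 2-fold higher, where 1.53% of kept genes were, and 0 were at least 2-fold lower, where 0.86% were. The median difference of the kept members was 1.27 in vivo and 0.28 in vitro, beside -0.07 and 0.04 over all kept genes. The 3 genes past 2-fold in both settings were Bcl2l11, Bbc3 and Bmf, and 0.941% of kept genes met that limit.

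The mean of the dexamethasone differences in both settings, called the common difference below, was tested against 0 with limma on the 4 treated and vehicle arrays, with a term for setting and one for dexamethasone and Benjamini-Hochberg adjustment over the 9882 genes. In that test 3 of 7 members rose and 0 fell, where 2.34% of kept genes rose and 1.46% fell (3.79% together). An unadjusted p under 0.05 was reached by 3 of 7 members and by 1262 of the 9882 kept genes. The spread in this test comes from the disagreement between the responses of the 2 settings, not from the spread between pools of a group. Each gene has 1 residual degree of freedom. The eBayes step of limma draws its variance toward a trend over all kept genes, which gives 9.93 degrees of freedom in total. The SE and p-value of a single gene thus rest largely on the other genes. Without the level limit limma called 0 of 19764 genes, with 1313 at an unadjusted p under 0.05, and without setting as a block 0 of 9882, with 324. Bcl2l11, Bbc3 and Bmf were among those with an unadjusted p under 0.05 both times.

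Windows around annotated starts of the 3 genes that rose are shown. They were picked in part for a forkhead match, which a window of Bcl2l11 and the second Bbc3 window hold. The Bmf windows hold none, and a part of the motif in the rise was not tested. Of the 8 windows that the 3 genes have, 4 are printed. They come from RefSeq (build GRCm38.p6), each 300 bases long with 250 bases before the start. Capitals mark every match, on either strand, to the forkhead motif GTAAACA, the GC box GGGCGG and the CCAAT box. The windows are, for Bcl2l11, chr2:128125788-128126087 on the plus strand, for Bbc3, chr7:16309333-16309632 (first start) and chr7:16310011-16310310 (second start) on the plus strand, and for Bmf, chr2:118549637-118549936 on the minus strand.
Bcl2l11: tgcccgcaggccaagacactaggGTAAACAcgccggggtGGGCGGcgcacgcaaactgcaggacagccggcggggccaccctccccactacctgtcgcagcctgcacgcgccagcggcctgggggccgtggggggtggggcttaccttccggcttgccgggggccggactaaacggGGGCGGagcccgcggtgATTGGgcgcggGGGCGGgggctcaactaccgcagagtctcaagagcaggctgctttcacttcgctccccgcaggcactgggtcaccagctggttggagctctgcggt
Bbc3, first start: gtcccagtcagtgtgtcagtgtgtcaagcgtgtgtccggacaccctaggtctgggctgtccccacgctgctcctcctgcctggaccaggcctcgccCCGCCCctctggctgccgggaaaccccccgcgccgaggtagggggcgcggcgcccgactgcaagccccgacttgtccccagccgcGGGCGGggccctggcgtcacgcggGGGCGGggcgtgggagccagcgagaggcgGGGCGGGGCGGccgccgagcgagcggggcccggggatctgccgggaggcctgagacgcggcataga
Bbc3, second start: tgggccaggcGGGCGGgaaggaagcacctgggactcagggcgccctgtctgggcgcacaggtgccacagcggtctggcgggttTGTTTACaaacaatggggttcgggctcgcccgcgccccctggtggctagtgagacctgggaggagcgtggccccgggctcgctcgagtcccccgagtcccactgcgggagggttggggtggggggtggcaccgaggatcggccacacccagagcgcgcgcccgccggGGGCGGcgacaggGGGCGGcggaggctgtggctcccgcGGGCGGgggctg
Bmf: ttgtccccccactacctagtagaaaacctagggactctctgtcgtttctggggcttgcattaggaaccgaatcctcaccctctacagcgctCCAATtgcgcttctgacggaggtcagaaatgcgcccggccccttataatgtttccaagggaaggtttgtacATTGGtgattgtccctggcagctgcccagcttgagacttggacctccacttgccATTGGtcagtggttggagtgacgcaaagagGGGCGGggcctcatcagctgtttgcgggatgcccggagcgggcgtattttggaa

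RefSeq windows were at hand for 6 of the 8 members, 12 windows in all. The forkhead motif, bound by FoxO factors, was in 2 of the 12, those of Bcl2l11 and Bbc3 printed above, and in 3.65% of all 32851 windows of the same length. In the Bcl2l11 window its first base lay 227 bases before the start, and in the window of the second Bbc3 start 167 bases before, on the opposite strand. The glucocorticoid receptor palindrome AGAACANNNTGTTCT was in 0 of the 12 and in 0.00913% of all windows. A single arm of it, AGAACA, which the palindrome contains, was in 0 of the 12 and in 19.0% of all. The GC box was in 9 of the 12 and 35.7% of all, and CCAAT in 6 of the 12 and 37.4% of all. Counted by gene, the GC box was in a window of 6 of the 6 members and CCAAT of 4. The Bcl2l11 window had 71% G and C, the Bbc3 windows 76% and 74.7% and the Bmf window 55.3%, beside a median of 52.7% over all windows. These matches are letters in a window, and no binding was measured.

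Bcl2l11 encodes Bim, which binds all the main pro-survival proteins and can also activate Bax and Bak. Its brightest probe set stood at 11.31 with dexamethasone in vivo, against 9.97 with PBS, and at 11.33 with dexamethasone in vitro, against 10.09 with ethanol. The untreated level was 10.03. Both dexamethasone arrays stood at least 1.23 above each of the other 3 arrays, which lay within 0.12 of each other. The difference was 1.35 in vivo (2.54-fold) and 1.24 in vitro (2.37-fold), and Bcl2l11 rose by 1.29 in limma's test (SE 0.117, adjusted p = 0.000329).

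All 6 Bcl2l11 probe sets were higher with dexamethasone in both settings, by 1.11 to 2.27 in vivo and 0.69 to 1.85 in vitro. They report 1 gene on the same arrays and are not replicates. Of them 6 were at least 2-fold higher in vivo and 5 in vitro, where 2.06% and 0.722% of the 45037 probe sets that are not controls were. On each of the 6, both dexamethasone arrays lay above the 3 others. With every probe set above the level limit fitted, limma called all 5 Bcl2l11 probe sets that passed it, with adjusted p from 0.00404 to 0.0387, where 1.73% of probe sets were called.

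The dimmer Bcl2l11 probe sets were less even between settings. The dimmest but 1 stood at 8.11 with dexamethasone and 5.85 with PBS in vivo, and its difference was 2.27 in vivo (4.81-fold) and 1.11 in vitro (2.16-fold). The dimmest stood at 6.11 with dexamethasone and 4.20 with PBS, and at 5.81 with dexamethasone and 5.12 with ethanol. Its untreated level, 5.12, was 0.92 above the PBS level, and against the untreated array its difference was 0.99 in vivo and 0.69 in vitro. The 4 brighter probe sets had in vivo minus in vitro values from -0.39 to 0.21. Which Bim isoforms each probe set detects was not examined.

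Bbc3 encodes Puma, a BH3-only protein first known as a p53 target that also binds all the main pro-survival proteins. Its single probe set stood at 7.98 with dexamethasone in vivo, against 6.28 with PBS, and at 8.95 with dexamethasone in vitro, against 7.22 with ethanol. The untreated level was 6.90. Both dexamethasone arrays lay above the 3 others, but those 3 spanned 0.94, the widest span among the 3 members that rose, and the in vivo dexamethasone array stood only 0.76 above ethanol culture. The difference was 1.70 in vivo (3.24-fold) and 1.72 in vitro (3.30-fold), and Bbc3 rose by 1.71 (SE 0.181, limma adjusted p = 0.000726). Against the untreated array the differences were 1.08 in vivo and 2.04 in vitro.

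Bmf encodes a BH3-only protein that binds pro-survival proteins and, like Bim, can be tethered to the cytoskeleton through a dynein light chain. Its brightest probe set stood at 9.39 with dexamethasone in vivo, against 7.88 with PBS, and at 9.32 with dexamethasone in vitro, against 7.68 with ethanol. The untreated level was 7.74. Both dexamethasone arrays stood at least 1.45 above the other 3 arrays, which lay within 0.19 of each other. The difference was 1.52 in vivo (2.87-fold) and 1.64 in vitro (3.12-fold), and Bmf rose by 1.58 (SE 0.163, limma adjusted p = 0.000596).

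The other Bmf probe sets gave smaller differences. The second stood at 5.88 with dexamethasone and 4.69 with PBS in vivo, and at 5.48 with dexamethasone and 5.11 with ethanol in vitro, with an untreated level of 4.90. The dimmest differed by -0.08 in both settings and was lowest on the untreated array, at 4.46. Both lay under the level limit. With the median of the 3 probe sets in place of the brightest, Bmf differed by 0.73 in vivo and 0.32 in vitro, and its common difference of 0.53 had a limma adjusted p of 0.402. By the suffixes Affymetrix gives, the brightest can match transcripts of more than 1 gene and the dimmest holds probes that can cross-hybridise.

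Pmaip1 encodes Noxa, which binds Mcl-1 and is best known as a p53 target. It stood at 7.51 with dexamethasone in vivo, against 6.24 with PBS, and at 6.02 with dexamethasone in vitro, against 6.50 with ethanol. The untreated level was 6.96. The in vivo dexamethasone array was the highest of the 5 and the in vitro dexamethasone array the lowest. The difference was 1.27 in vivo (2.42-fold) and -0.48 in vitro. The common difference of 0.40 (SE 0.346) had a limma adjusted p of 0.803. PBS stood 0.72 below untreated, so that against the untreated array the in vivo difference was 0.55.

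Bid encodes a protein that caspase-8 cleaves to its active form, which links death receptors to the mitochondria. It stood at 6.85 with dexamethasone in vivo, against 7.97 with PBS, and at 6.71 with dexamethasone in vitro, against 6.43 with ethanol. The untreated level was 7.76. The in vivo dexamethasone array and both cultured arrays were low, and the PBS and untreated arrays were high. The difference was -1.12 in vivo and 0.28 in vitro, and the common difference of -0.42 (SE 0.296) had a limma adjusted p of 0.708. The second Bid probe set likewise had its highest levels on the PBS and untreated arrays, with differences of -1.41 in vivo and 0.33 in vitro.

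Bid was also lower on the ethanol culture array than on the untreated array. The parts of culture, ethanol, pool and cell types in this were not tested. In ethanol culture Bid stood 1.33 below the untreated array by the brightest probe set and 1.14 below by the other. That was the only kept member at least 2-fold different between those arrays, where 3.1% of kept genes were past 2-fold upward and 8.07% downward. Those shares are 306 and 797 genes, or 487 and 677 with each array centred on its median. Against the untreated array, Bid stood at -0.91 with dexamethasone in vivo and at -1.04 with dexamethasone in vitro.

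Between PBS and untreated, 0 of 7 kept members were at least 2-fold different, where 0.192% of kept genes were higher and 0.374% lower. The largest such differences were -0.72 for Pmaip1 and -0.62 for Bbc3.

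Bad encodes a BH3-only protein that is kept inactive by phosphorylation and binding to 14-3-3 proteins. It stood at 7.03 with dexamethasone in vivo, against 7.30 with PBS, and at 7.10 with dexamethasone in vitro, against 6.99 with ethanol, with 6.96 untreated. The differences of its probe sets were -0.27 and -0.53 in vivo and 0.11 and 0.06 in vitro, and its common difference of -0.08 (SE 0.201) had a limma adjusted p of 0.950. Bik, which encodes a BH3-only protein found at the endoplasmic reticulum, stood at 5.67 with dexamethasone in vivo, against 5.56 with PBS, and at 5.63 on both cultured arrays, with 5.35 untreated. Its differences were 0.12 in vivo and 0.00 in vitro, and the common difference of 0.06 (SE 0.235) had a limma adjusted p of 0.975. By its suffix, this Bik probe set also holds probes that can cross-hybridise. It was the only Bik probe set to pass the level limit, at a mean of 5.57.

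Hrk encodes Harakiri, a BH3-only protein known from neurons. It lay between 3.69 with dexamethasone in vitro and 3.39 untreated, under each array's median of 4.23 to 4.37. Its differences were -0.02 in vivo and 0.21 in vitro, and it was not tested. The levels of Hrk and of the dimmer Bik probe sets, at means of 4.89 and 4.02, give no detection call, and the files used here hold none.

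**Figure D2:**
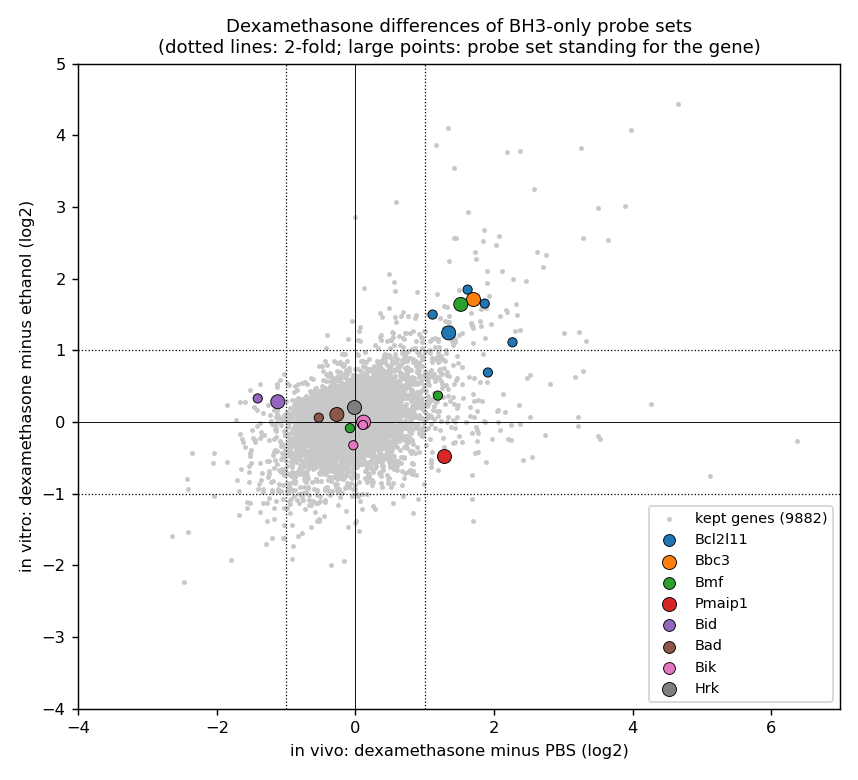
Dexamethasone minus PBS in vivo (horizontal axis, log2) against dexamethasone minus ethanol in vitro (vertical axis, log2) for the 19 BH3-only probe sets, over the 9882 kept genes in grey. Dotted lines mark 2-fold, and large points the probe set that stands for each gene. Bcl2l11, Bbc3 and Bmf sit past 2-fold in both settings, Pmaip1 at 1.27 and -0.48, and Bid at -1.12 and 0.28.

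The settings were then set against each other. In vivo minus in vitro, the responses differed by 0.10 for Bcl2l11, -0.03 for Bbc3 and -0.12 for Bmf. The same value was 1.75 for Pmaip1, -1.40 for Bid, -0.38 for Bad, 0.12 for Bik and -0.23 for Hrk. Among kept genes 2.02% were at 1 or more and 1.61% at -1 or less. With 1 array per group this value has no test.

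Counted by order, both dexamethasone arrays lay above all 3 others for 3 of the 7 kept members, Bcl2l11, Bbc3 and Bmf, where that held for 6.96% of kept genes. By the smaller of both differences, Bbc3 ranked 26, Bmf 38 and Bcl2l11 69 among the 9882 genes. In the authors' deposited table of the in vivo comparison, which lists 1260 of the 45101 probe sets, 12 of the 19 appear. They are all 6 of Bcl2l11, both of Bid, 2 of the 3 of Bmf and the single ones of Bbc3 and Pmaip1, with the table's values from 2.27 for a Bcl2l11 probe set to -1.41 for a Bid probe set. Those values equal the differences given here, from the same arrays, so the listing is no separate check.

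The genes most like each member that rose were found by the Euclidean distance between levels on the 5 arrays, each gene centred on its own mean, over the kept genes. Nearest to Bcl2l11 were Sptssa (distance 0.14 on the log2 scale), Ecpas (0.25), Fut8 (0.26), Tnfaip3 (0.26) and Ctla2a (0.27). Sptssa encodes a small subunit of serine palmitoyltransferase, which starts sphingolipid synthesis, and Tnfaip3 encodes A20, an inhibitor of NF-kB signalling. Nearest to Bmf were Setd4 (0.09), Mdm1 (0.26), Osbpl1a (0.31), Serinc5 (0.33) and Mtmr1 (0.36). Nearest to Bbc3, at greater distances, were Cmc2 (0.48), Pik3ip1 (0.52), Abhd15 (0.53), Fgfr1 (0.54) and Txnip (0.57). Pik3ip1 encodes an inhibitor of PI3 kinase and Txnip a binding partner of thioredoxin. Bcl2l11 and Bmf lay 0.40 apart, and Bbc3 lay 0.98 from Bcl2l11 and 1.10 from Bmf. From Bcl2l11, Bik lay 1.28, Bad 1.48, Pmaip1 1.68 and Bid 2.43. These distances rest on 5 arrays and carry no test.

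The pro-survival proteins are those that BH3-only proteins bind. Of 8 pro-survival genes listed, 5 passed the level limit, 1 rose and 1 fell, where 2.34% and 1.46% of kept genes did. Bcl2 rose by 1.04 (SE 0.193, limma adjusted p = 0.0152). It stood at 8.50 with dexamethasone and 7.32 with PBS in vivo, and at 7.15 with dexamethasone and 6.24 with ethanol in vitro, where the untreated level was 7.60. Bcl2l1, which encodes Bcl-xL, fell by 0.74 (SE 0.157, limma adjusted p = 0.0285). Mcl1 had differences of 0.37 in vivo and 0.13 in vitro, Bcl2l2 of 0.21 and -0.29 and Bcl2a1a of -0.13 and -0.55. The median of these 5 was 0.21 in vivo and -0.29 in vitro. Bcl2a1a belongs to a family of near-identical copies, which a probe set may not separate.

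Of the 3 effector genes, 0 of 3 passed limma's test and 0 had an unadjusted p under 0.05. Over all kept genes 3.79% passed, and 1262 of 9882 had such an unadjusted p. Bax stood at 7.72 with dexamethasone and 8.23 with PBS in vivo and at 8.07 on both cultured arrays. Bak1 differed by -0.22 in vivo and 0.25 in vitro, and Bok by 1.02 and 0.12. Among the 8 kept genes of 9 with a BH3-like segment outside the family, 0 passed limma's test and 1 had an unadjusted p under 0.05. That was Bnip3, a mitophagy receptor, with differences of 0.84 in vivo and 0.61 in vitro (limma adjusted p = 0.0667). Below the Bcl-2 family, 0 of the 7 kept genes for cytochrome c, Apaf1, caspases and their regulators passed limma's test, and 0 had an unadjusted p under 0.05. Xiap, which encodes an inhibitor of caspases, had differences of 0.31 in vivo and -0.14 in vitro, Cycs, which encodes cytochrome c, of -0.43 and -0.10, and Apaf1 of -0.28 and -0.04.

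Among 11 kept genes of 13 that encode transcriptional regulators of BH3-only genes, 2 rose and 0 fell. Over all kept genes 2.34% rose and 1.46% fell. Nr3c1, the glucocorticoid receptor, rose by 1.16 (SE 0.132, limma adjusted p = 0.00104), and Jun, an AP-1 subunit, by 1.90 (SE 0.448, limma adjusted p = 0.0475), with differences of 3.17 in vivo and 0.63 in vitro. Foxo3, a forkhead factor that can activate Bcl2l11 and Bbc3, had differences of 0.65 in vivo and -0.10 in vitro, Egr1 of 0.57 and 0.18 and Myc of -1.17 and -0.41. Ikzf1, which encodes the lymphoid factor Ikaros, had 0.34 and 0.61 (limma adjusted p = 0.0509). Foxo3, Egr1, Myc and Ikzf1 did not pass the test.

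Other p53 targets were compared because Bbc3 and Pmaip1 belong to that set. Of 10 such genes, all kept, 0 passed limma's test, where 3.79% of all kept genes did. An unadjusted p under 0.05 was reached by 3 of the 10, and by 1262 of all 9882. In either setting 0 of the 10 were at least 2-fold different. Cdkn1a, which encodes the cell cycle inhibitor p21, came closest, with differences of 0.96 in vivo and 0.26 in vitro (limma adjusted p = 0.202). Ccng1 had 0.72 and 0.19, Trp53inp1 0.53 and 0.11, Perp 0.83 and -0.41 and Aen -0.79 and -0.02. Their median was 0.31 in vivo and 0.01 in vitro. Of 12 kept canonical glucocorticoid-induced genes, 10 rose, where 2.34% of all kept genes did. Nfil3 rose by 4.03 and Tsc22d3 by 2.54 (limma adjusted p = 1.45e-05 and 2.07e-05). That list was chosen with earlier results of these data known, so its count is no independent measure of the response to the hormone.

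Among 16 kept genes of 18 that act on BH3-only proteins after translation, 1 rose and 0 fell, and 3 had an unadjusted p under 0.05. Over all 9882 kept genes 2.34% rose, 1.46% fell and 1262 had such an unadjusted p. Hspa8, a constitutive heat shock protein, rose by 0.44 (SE 0.093, limma adjusted p = 0.0275). Dynll2, the dynein light chain that binds Bmf, had differences of -0.69 in vivo and -0.28 in vitro. Akt1, a kinase that phosphorylates Bad, had -0.56 and -0.17, Pim1, a further Bad kinase, 0.59 and -0.58, and Ywhaz, a 14-3-3 gene, -0.28 and -0.49. Dynll2, Akt1, Pim1 and Ywhaz did not pass the test.

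**Figure D3:**
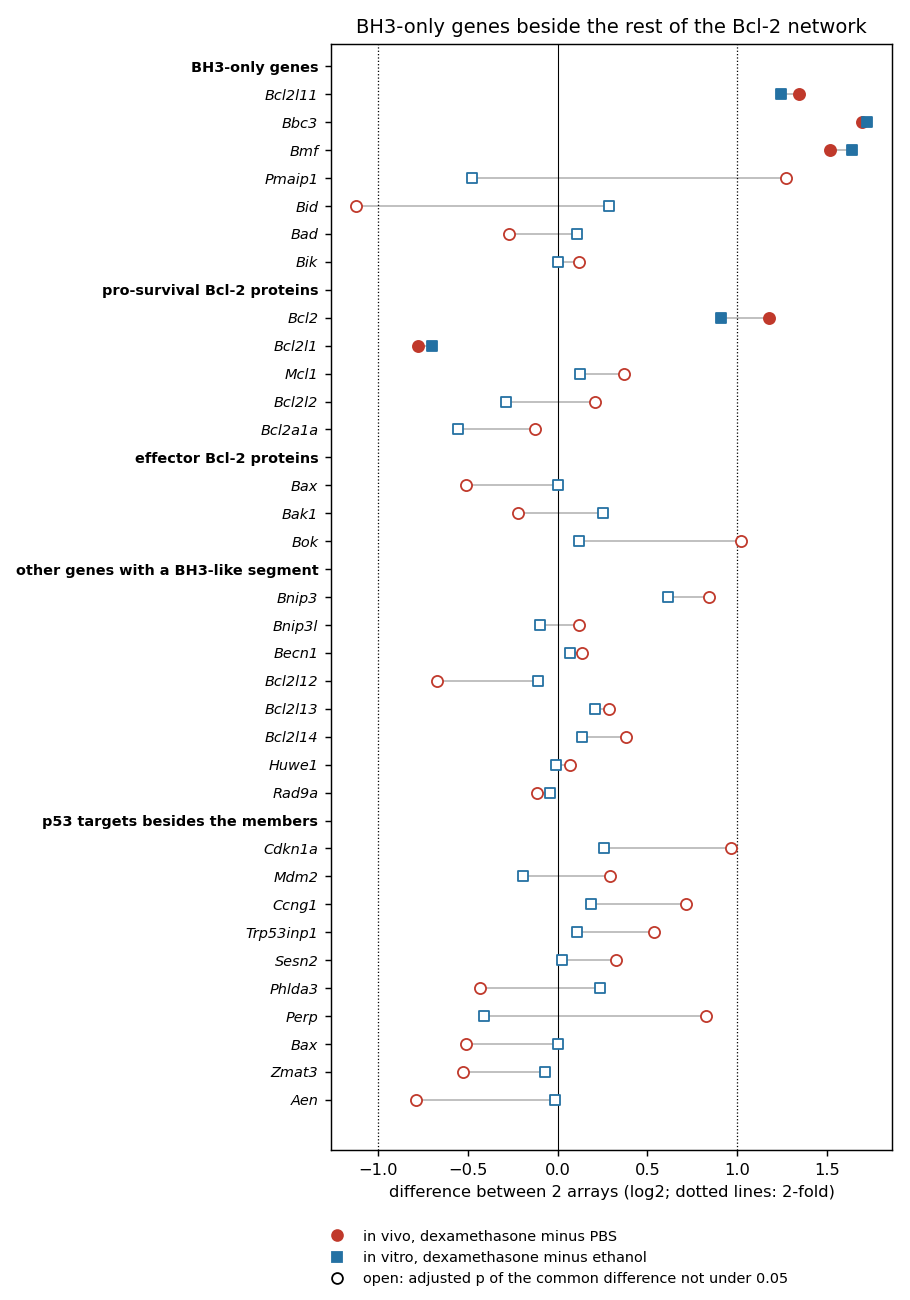
Differences between arrays (log2, horizontal axis) for kept genes of 5 groups, as red circles in vivo (dexamethasone minus PBS) and blue squares in vitro (dexamethasone minus ethanol). Filled symbols mark genes whose common difference had a limma adjusted p under 0.05. They are Bcl2l11, Bbc3 and Bmf among BH3-only genes and Bcl2 (higher) and Bcl2l1 (lower) among pro-survival genes.

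Levels of cell type markers differed between arrays. Double-positive thymocyte genes were strong throughout, with median levels of 9.76 with dexamethasone and 10.18 with PBS in vivo, 10.08 with dexamethasone and 10.38 with ethanol in vitro, and 9.99 untreated. Of the 11 measured, 5 fell and 0 rose, where 1.46% and 2.34% of kept genes did. In vivo 3 of the 11 were at least 2-fold lower, where 1.48% of kept genes were. The log2 summed intensity of the double-positive genes was 13.84 with dexamethasone against 14.45 with PBS. In vitro it was 14.23 with dexamethasone against 14.67 with ethanol. Macrophage markers had 13.24 with dexamethasone against 13.07 with PBS, and 9.24 with dexamethasone against 9.62 with ethanol. Thymic epithelium markers had 13.79 with dexamethasone against 13.64 with PBS, and 8.12 with dexamethasone against 8.04 with ethanol. Fibroblast markers had 11.39 with dexamethasone against 10.96 with PBS, and 7.73 with dexamethasone against 6.39 with ethanol. In vitro 3 of the 6 kept fibroblast markers were at least 2-fold higher, beside 1.53% of kept genes. Of the 6, 1 rose, beside 2.34% of kept genes. Those 3 stood at 3.89 (Pdgfrb), 3.70 (Col1a1) and 2.75 (Mgp) with ethanol, under that array's median of 4.26. Mgp, the gene that rose, stood at 3.88 with dexamethasone in vitro, and in vivo at 8.95 with dexamethasone against 7.88 with PBS. Adipocyte markers had 12.91 with dexamethasone against 12.08 with PBS, and 5.43 with dexamethasone against 5.44 with ethanol. All 8 kept macrophage, all 8 kept epithelium and all 6 kept fibroblast markers were at least 2-fold lower in ethanol culture than untreated. Their medians were -3.79, -6.67 and -4.51, and 8.07% of all kept genes were lower by at least 2-fold there. The part of other cell types in the differences of any member was not tested.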

How the data were processed

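Affymetrix arrays of 5 pools, 1 per group, were used as deposited. The authors' level table holds log2 values made with RMA, per the submitters' processing notes, and their deposited series matrix holds the same values as linear intensity (largest difference after taking log2, 7.11e-15). The notes used here name no RMA software or version. The authors' deposited log2 differences equalled differences of those levels.

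Groups came from the sample titles. Symbols were updated through RefSeq (GRCm38.p6) by current symbol, accession or unique synonym. The probe set with the highest mean stood for a gene, and genes were kept where that mean reached 5.28, the median over genes. Differences of at least 1 were counted. The common difference was fitted with limma 3.58.1 in R 4.3.3 (lmFit, eBayes with a trend), which left 1 residual degree of freedom per gene, with Benjamini-Hochberg adjustment over 9882 genes and a threshold of 0.05. Precision is limited by the number of arrays. The members and the gene lists were chosen with earlier results of these data known. Named were all members, up to 6 genes per list, first those called, by adjusted p, then those with the largest difference in either setting, and the 5 nearest genes of each member that rose. Alternatives were another representative of a gene, no level limit, centred arrays, every probe set, no trend, no setting block, the untreated array as a control and a limit of 1.5-fold.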

Additional observations from a re-analysis of the deposited data

Results flagged for a closer look

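Pmaip1 and Bid differed in opposite directions in the 2 settings, and this difference was not tested, since each group had 1 array. In vivo minus in vitro, the responses differed by 1.75 for Pmaip1 and by -1.40 for Bid. Bad (-0.38) and Hrk (-0.23) also had opposite signs, but each of their differences was under 2-fold.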

How the results depend on the processing

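No paired analysis was possible because the labels give no replicate numbers to pair by, and the only block in the fit is the setting. The count of 3 members that rose in limma's test was 0 without the level limit (0 of 19764 genes called) and 0 without setting as a block (0 of 9882). Adjusted p-values there were 0.711 for each of Bcl2l11, Bbc3 and Bmf without the limit, and 0.414, 1 and 0.435 without the block. It was 2 with the median over probe sets, which left out Bmf, and 3 with every probe set fitted, without a trend, with centred arrays and with the untreated array as a further control. Genes called numbered 375, against 67 with the median over probe sets, 126 without a trend and 710 with centred arrays. The adjusted p of Bcl2l11 thus ran from 1.6e-19 to 0.711, that of Bbc3 from 4.62e-14 to 1 and that of Bmf from 3.69e-15 to 0.711. Members at least 2-fold different in vivo numbered 5, and 3 against the untreated array, where Pmaip1 (0.55) and Bid (-0.91) fell short. Between PBS and untreated the count was 0, and 2 at a limit of 1.5-fold. Medians over probe sets with a gene name differed by -0.16 between ethanol culture and untreated, and with centring 487 genes were past 2-fold upward and 677 downward there, against 306 and 797. Genes past 2-fold in vivo numbered 414, against 644 without the level limit and 1368 at 1.5-fold. In vitro they numbered 236, against 802 at 1.5-fold and 1340 against the untreated array. Between PBS and untreated they numbered 56, against 109 without the limit and 414 at 1.5-fold, and between ethanol culture and untreated 1103, against 1835 and 2487. No value called with the main processing changed sign. Bid in vitro was not called there, at 0.28, but stood at -1.04 with the untreated array as the control. With that control 3 members were at least 2-fold higher in vitro and 1 was lower.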
